A study of Mus musculus with 8 samples.

Results

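The 8 interferon-linked genes of the mouse PHF11 and TRIM families were followed through the tumour endothelial cells (ECs) of this study. They were Phf11a, Phf11b, Phf11c and Phf11d, then Trim30a, Trim30d, Trim21 and Trim25, which is 8 of the 20408 genes with a row in any library. They were taken by name, and their levels were read in the cells that carried at least 1 UMI (a counted RNA molecule) of Pecam1, the gene of the endothelial surface protein CD31. That choice left 7159 of 8204 cells. The cells were thus selected on Pecam1, and further on by vessel-type markers, so these are described without a test. The genes themselves were chosen with their response to cGAMP in these libraries already known.

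ECs had been sorted on CD31 from breast tumours and sequenced on the 10x Chromium platform, which reads the 3′ ends of RNAs. The spontaneous groups came from mice in which the MMTV promoter, active in mammary epithelium, drives the PyMT oncogene. The implanted groups came from mice whose mammary fat pad had received briefly cultured tumour cells of such animals. Either tumour was injected with PBS or with cGAMP, a cyclic dinucleotide that activates STING, hours before the cells were taken, and there were 2 libraries in each of the 4 groups (spontaneous PBS, spontaneous cGAMP, implanted PBS, implanted cGAMP). All mice were adult and, per the methods, female. The labels give the strain of all libraries as c57bl/6 while the methods name FVB mice, so the strain is not settled. The methods name 2 mice for each group, without saying which library came from which mouse, so the p-values measure the spread between libraries, which may be partly technical.

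PHF11 proteins carry a PHD finger, a zinc-binding fold, and human PHF11 is known as a regulator of transcription in lymphocytes and as a factor in DNA repair. The mouse genome holds several neighbouring copies, and what each does on its own is less known. TRIM proteins join a RING domain, which gives many of them ubiquitin ligase activity, to B-boxes and a coiled coil. TRIM30a restrains signalling from Toll-like receptors to NF-kB by acting on TAB2 and TAB3. TRIM21 binds antibodies in the cytosol and sends what they coat to the proteasome. TRIM25 modifies the RNA sensor RIG-I and joins ISG15, a ubiquitin-like protein, to its targets. Genes of this kind are classical targets of type I interferon, which acts through interferon-response elements near gene starts.

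The 4 Phf11 genes lie side by side on the minus strand of chromosome 14, and Trim30a and Trim30d are neighbours on the minus strand of chromosome 7, where Trim21 also lies. Trim25 lies on the plus strand of chromosome 11. All 8 genes matched an entry of the RefSeq promoter table (assembly GRCm38.p6, the assembly also called mm10), which holds 250 bases before and 50 after each annotated start. Because the genes responded together, the stretch from 110 bases before to 30 after the start is shown for 7 of the 8 genes, 5′ to 3′ on the strand of the gene. Capitals mark matches to AANNGAAA on either strand, a core of interferon regulatory factor sites, and to the repeated form found in interferon-response elements (GAAA, any 2 bases, then GAAA again, on either strand), which always contains the shorter word. Trim30a has 2 entries in the table, and the first is shown. Phf11c is left out, because RefSeq starts it 1869 bases downstream of its GENCODE vM21 start, inside the annotated gene. For the other 7 genes the starts of these annotations lie within 27 bases of each other.
Phf11a: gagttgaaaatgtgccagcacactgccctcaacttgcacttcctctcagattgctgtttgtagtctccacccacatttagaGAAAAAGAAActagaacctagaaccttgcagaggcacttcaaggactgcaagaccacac
Phf11b: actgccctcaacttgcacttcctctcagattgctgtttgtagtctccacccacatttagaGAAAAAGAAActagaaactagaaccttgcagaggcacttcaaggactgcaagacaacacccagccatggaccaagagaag
Phf11d: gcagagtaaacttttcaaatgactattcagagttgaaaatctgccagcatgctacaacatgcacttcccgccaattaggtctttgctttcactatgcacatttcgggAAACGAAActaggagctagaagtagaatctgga
Trim30a: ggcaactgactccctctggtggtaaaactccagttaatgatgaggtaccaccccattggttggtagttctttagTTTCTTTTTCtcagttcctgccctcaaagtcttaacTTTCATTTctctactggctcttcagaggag
Trim30d: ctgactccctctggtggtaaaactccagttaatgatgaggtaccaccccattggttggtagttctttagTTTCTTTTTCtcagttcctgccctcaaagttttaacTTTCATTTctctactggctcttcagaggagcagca
Trim21: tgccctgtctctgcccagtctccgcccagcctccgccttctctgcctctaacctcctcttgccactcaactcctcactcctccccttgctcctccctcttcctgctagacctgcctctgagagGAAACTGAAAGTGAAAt
Trim25: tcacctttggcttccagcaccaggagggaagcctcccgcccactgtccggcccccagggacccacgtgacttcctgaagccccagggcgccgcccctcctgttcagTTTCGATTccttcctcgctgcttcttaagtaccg

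In order, these stretches are chr14:59297493-59297632, chr14:59341301-59341440 and chr14:59365461-59365600 for the Phf11 genes, and chr7:104465164-104465303, chr7:104507820-104507959, chr7:102565453-102565592 and chr11:88999293-88999432 for the TRIM genes. By the RefSeq starts, they cover the region just upstream of the first exon and the beginning of that exon. The longer word was found in Phf11a (GAAAAAGAAA, from 29 bases before the start), Phf11b (the same letters, from 50 bases before), Trim30a and Trim30d (TTTCTTTTTC, the opposite strand, from 36 and 41 bases before) and Trim21 (GAAACTGAAA and GAAAGTGAAA, overlapping, from 14 and 20 bases into the transcript). Phf11d and Trim25 held only the shorter word, from 3 and 4 bases before the start. The RefSeq entry of Phf11c, at its downstream start, was searched too and held neither word. Of all 32851 promoters in the table, 3.44% held the longer word and 23.9% the shorter. Such matches are letters in a window and do not show binding.

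The promoters of Phf11a and Phf11b shared 69.4% of their 20-base words and those of Trim30a and Trim30d 49.1%. Phf11d shared none with either of the first pair. Similarity at the other end of the transcripts bears on the counts, since reads that fit several genes are usually not counted. Of the 31-base words in the last 500 bases of the annotated transcripts, 49.1% of those of Phf11a, 55.7% of Phf11b, 69.8% of Phf11c and 32.8% of Phf11d also occur in another Phf11 transcript. The shares were 22.8% for Trim30a and 21.5% for Trim30d within the Trim30 genes, and Trim21 and Trim25 shared none with each other. The counts of the Phf11 genes, Phf11c most of all, and of the Trim30 pair are therefore uncertain as split between copies, and levels are not compared between genes. Annotated genes also overlap Trim30a (a small nuclear RNA gene on the other strand) and Trim30d (a processed pseudogene on the same strand).

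The libraries held 7451522 to 16338968 UMIs in their Pecam1 cells. The first implanted cGAMP library stood apart, with 75.5% of its cells carrying a Pecam1 UMI against 88.7% to 92.8% elsewhere and a median of 3049 UMIs per Pecam1 cell against 9523 to 14707.5. All 8 endothelial markers were present in each library, with a summed level between 4976 and 6066 CPM (UMIs of a gene scaled to the same total in every cell). Traces of other cells moved with the groups. The 8 immune markers summed to 215 and 63 CPM after cGAMP in implanted tumours and 15 to 42 elsewhere, the 6 epithelial tumour markers to 339 in the first implanted cGAMP library and 46 to 149 elsewhere, and the 7 mural markers to 740 and 588 in spontaneous cGAMP and 77 to 439 elsewhere. The 5 fibroblast markers lay between 13 and 98, and no marker of these lists was at 0 in any library. The 7 proliferation markers fell between 106 and 389 CPM after PBS and between 27 and 53 after cGAMP. At most 3 barcodes were shared by any pair of libraries, and no doublet caller was run.

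All 8 genes were higher after cGAMP in both tumour models. Each library gives a gene 1 level, the mean CPM over its Pecam1 cells, and differences are on the log2(CPM + 1) scale, tested with limma over 10424 genes with Benjamini-Hochberg adjustment (called under 0.05). In the spontaneous model 8 of 8 were called, all higher, where 12.7% of all tested genes were called and 5.09% called higher. In the implanted model 8 of 8 were called, all higher, against 25% called and 8.6% called higher. Their median log2 change was 2.49 in spontaneous and 2.38 in implanted tumours, beside medians of -0.10 and -0.10 over all tested genes. With median-of-ratios scaling those 2 medians of all genes moved to -0.00 and -0.01, and the share of calls that were higher went from 40.2% to 66.4% and from 34.3% to 51.5%, while the 8 genes stayed called. The cGAMP libraries lay above the PBS libraries without overlap for 8 of 8 genes in either model, which held for 18.8% and 21.6% of tested genes in this direction. These genes were picked with such results in view, so the counts are not independent evidence of the direction.

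Phf11d lies between Phf11b and Phf11c in the cluster. Its level was 48.004 and 54.1 CPM in the spontaneous PBS libraries and 300.02 and 343.8 CPM after cGAMP. In implanted tumours it was 86.6 and 64.7 CPM after PBS and 332.1 and 444.0 CPM after cGAMP. Both treated pairs thus lay far above both control pairs. The log2 change was 2.63 ± 0.16 (SE, adjusted p = 6.05e-06) in spontaneous and 2.34 ± 0.16 (adjusted p = 2.33e-05) in implanted tumours.

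Phf11b shares most of its promoter words with Phf11a. Its level was 2.91 and 3.47 CPM in spontaneous PBS and 107.8 and 105.6 CPM after cGAMP. In implanted tumours the libraries read 15.1 and 10.8 CPM after PBS and 209.4 and 259.6 CPM after cGAMP. The 4 groups did not overlap and the treated spontaneous libraries lay close together. The log2 change was 4.69 ± 0.16 (adjusted p = 3.07e-07) in spontaneous tumours and 4.09 ± 0.16 (adjusted p = 1.66e-06) in implanted tumours.

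Phf11a was close to absent without cGAMP. It had 3 and 0 UMIs in the spontaneous PBS libraries (0.42 and 0 CPM) and 16 and 9 in the implanted ones (1.12 and 0.52 CPM). After cGAMP the levels were 9.08 and 8.31 CPM in spontaneous and 27.2 and 35.1 CPM in implanted tumours. The fitted log2 changes of 3.02 ± 0.32 (adjusted p = 0.000247) and 4.15 ± 0.32 (adjusted p = 3.62e-05) depend on the pseudocount at such levels. On summed UMIs the ratio was 59.1 in spontaneous tumours, with an exact 95% counting interval from 19.95 to 289, and 46.7 in implanted tumours, with an interval from 31.4 to 72.6.

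Phf11c is the copy whose counts are the least certain. Its levels were 0.98 and 1.10 CPM in spontaneous PBS and 6.10 and 6.26 CPM after cGAMP. Implanted tumours gave 1.64 and 1.43 CPM after PBS and 11.1 and 14.0 CPM after cGAMP. The groups were again apart in each model. The log2 changes were 1.82 ± 0.28 (adjusted p = 0.00336) and 2.41 ± 0.28 (adjusted p = 0.000389).

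Trim30a, the restrainer of Toll-like receptor signalling, was found in every group. It was at 46.6 and 52.4 CPM in spontaneous PBS and at 247.9 and 260.6 CPM after cGAMP. In implanted tumours it was at 88.0 and 78.8 CPM after PBS and at 285.1 and 322.9 CPM after cGAMP. The log2 changes were 2.34 ± 0.10 (adjusted p = 6.40e-07) and 1.85 ± 0.10 (adjusted p = 6.37e-06). The implanted PBS libraries were the higher of the controls.

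Trim30d, its neighbour, went from nothing counted to a clear signal. No UMI was counted in the Pecam1 cells of either spontaneous PBS library, and the table of the second has no row for it. The spontaneous cGAMP libraries had 298 and 260 UMIs (25.2 and 21.1 CPM). Counted over the group, this was at least 158-fold higher than a limit of 3 UMIs in the PBS group. In implanted tumours the level was 0.93 and 0.31 CPM after PBS, from 12 and 6 UMIs, and 54.3 and 70.4 CPM after cGAMP, from 781 and 790. The ratio of summed UMIs there was 111 (exact 95% counting interval 70.2 to 188). The fitted log2 changes, which depend on the pseudocount, were 4.59 ± 0.27 (adjusted p = 3.52e-06) and 5.30 ± 0.27 (adjusted p = 4.92e-06).

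Trim21, the cytosolic antibody receptor, moved less. It was at 7.36 and 8.52 CPM in spontaneous PBS, 25.7 and 27.2 CPM in spontaneous cGAMP, 12.4 and 9.88 CPM in implanted PBS and 29.8 and 34.8 CPM in implanted cGAMP. The log2 changes were 1.62 ± 0.16 (adjusted p = 0.000146) and 1.46 ± 0.16 (adjusted p = 0.000247). Trim25, the ligase of RIG-I and ISG15, was already at 60.6 and 58.4 CPM in spontaneous PBS and at 70.1 and 65.6 CPM in implanted PBS. After cGAMP it reached 122.5 and 117.5 CPM in spontaneous and 110.01 and 110.3 CPM in implanted tumours. Its log2 changes were the smallest of the 8 genes, at 0.999 ± 0.082 (adjusted p = 3.86e-05) and 0.692 ± 0.082 (adjusted p = 0.00039). For Trim25 the treated spontaneous libraries were the highest, whereas for the other 7 genes the implanted cGAMP libraries had the highest group mean.

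**Figure D1:**
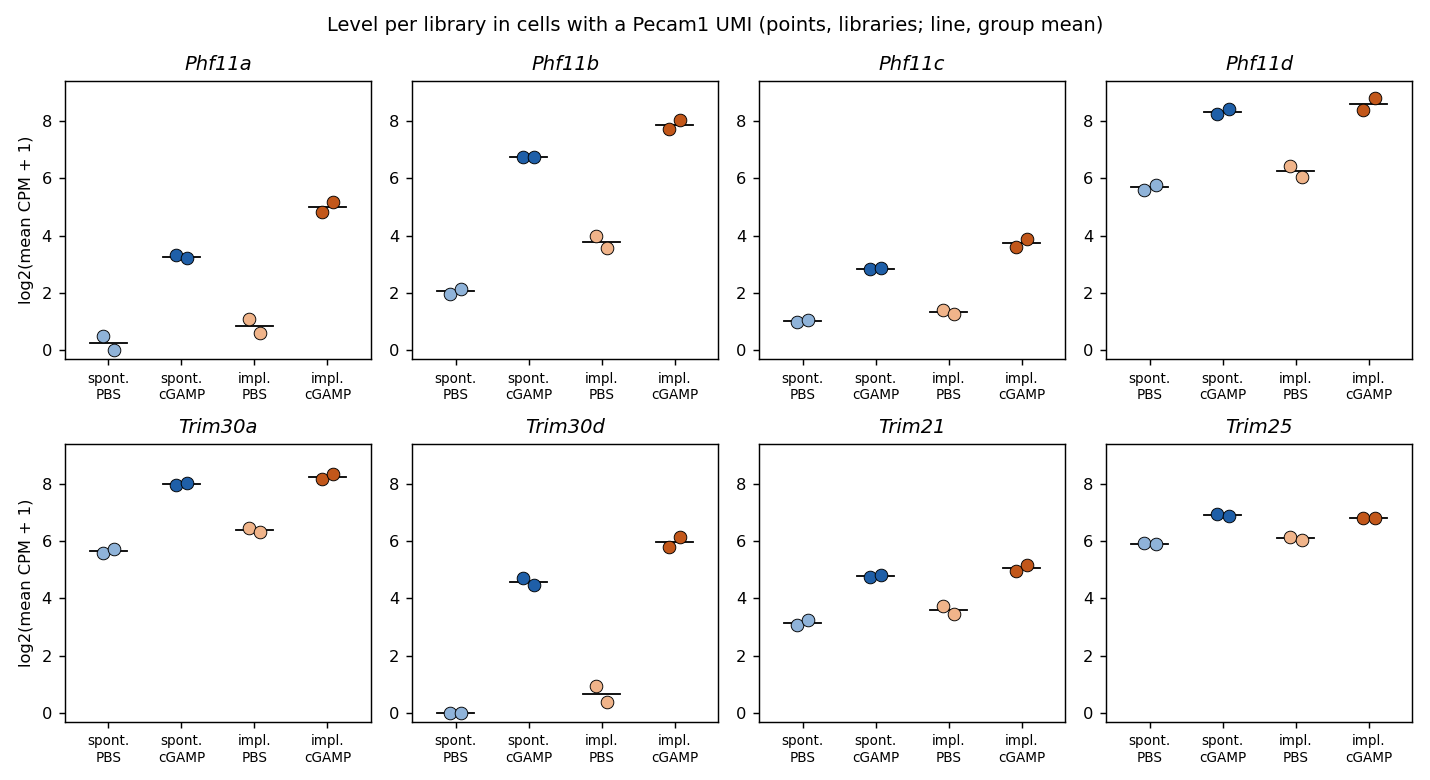
Level of each gene in each library, as log2(mean CPM + 1) on the y axis, for the 4 groups on the x axis (spont., spontaneous; impl., implanted). Each point is 1 library and each line the mean of its 2 libraries, and in every panel the cGAMP points of a model lie above its PBS points, with Trim30d at 0 in both spontaneous PBS libraries.

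**Figure D2:**
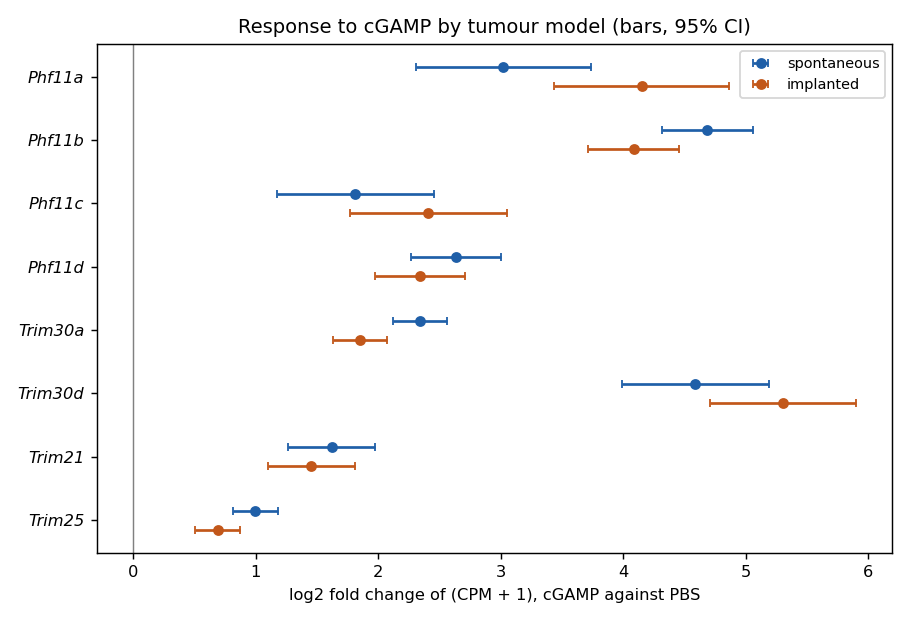
Log2 fold change of CPM + 1, cGAMP against PBS (x axis), for each gene (y axis) in spontaneous and implanted tumours, with 95% confidence intervals from the limma fit of 8 libraries. All 16 intervals lie above 0, from 0.69 for Trim25 in implanted tumours to 5.30 for Trim30d in implanted tumours.

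To ask whether the response was of another size in the other tumour model, the spontaneous log2 change was subtracted from the implanted one. No gene of the 8 was called by limma, where 0.662% of all tested genes were called, and 4 had an unadjusted p under 0.05, as did 13.4% of all tested genes. The difference was 1.13 for Phf11a (95% interval 0.12 to 2.14, adjusted p = 0.325), -0.60 for Phf11b (-1.12 to -0.08, adjusted p = 0.311), -0.49 for Trim30a (-0.80 to -0.17, adjusted p = 0.179) and -0.31 for Trim25 (-0.57 to -0.05, adjusted p = 0.301). Trim30d had 0.72 (-0.13 to 1.56) and Phf11c 0.60 (-0.308 to 1.498), while Phf11d had -0.29 (-0.81 to 0.23) and Trim21 -0.16 (-0.67 to 0.34). These intervals do not show that the models respond alike. At the low PBS levels of Phf11a, Phf11b, Phf11c and Trim30d the differences also depend on the pseudocount. On summed UMIs the ratio was larger in spontaneous tumours for Phf11a (59.1 against 46.7, with overlapping counting intervals) and Trim30d (at least 158 against 111). Their fitted differences have the other sign. For Phf11b the ratios were 48.8 and 17.6, and its fitted difference ran from -1.06 to -0.03 over 19 alternatives.

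The share of cells in which the genes were found was also higher in the cGAMP libraries. To set cells of unequal depth side by side, each was thinned to 2000 UMIs and shallower cells were left out, 580 of 1529 in the first implanted cGAMP library and 22 to 102 in the others. Phf11d was then found in 8.69% and 12.5% of Pecam1 cells in spontaneous PBS, 42.4% and 45.7% in spontaneous cGAMP, 13.5% and 11.8% in implanted PBS and 43.6% and 54.9% in implanted cGAMP. Without thinning the same shares were 30.2% and 38.9%, 84.9% and 87.4%, 53.0% and 46.7%, and 62.0% and 88.7%.

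Trim30d was in 0 of 863 and 0 of 554 thinned cells in spontaneous PBS, which allows shares of up to 0.348% and 0.542% for cells with a UMI, and in 4.32% and 3.74% in spontaneous cGAMP. In implanted tumours it was in 0.11% and 0% of thinned cells after PBS and in 9.17% and 10.1% after cGAMP. Phf11b was in 0.70% and 0.36%, then 17.7% and 18.1% of cells in spontaneous tumours, and in 3.51% and 3.02%, then 29.9% and 34.9% in implanted tumours. Intervals and limits here cover counting error only.

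More of the 8 genes were found per cell after cGAMP. Higher shares of the single genes raise such counts by themselves, and whether the genes met in the same cells beyond that was not tested. At 2000 UMIs per cell, 71.7% and 69.9% of Pecam1 cells in spontaneous PBS and 63.2% and 63.4% in implanted PBS had no UMI of any of the 8 genes. After cGAMP these shares were 24.7% and 22.6% in spontaneous and 18.2% and 14.9% in implanted tumours. Cells with 3 or more of the genes made up 0.35% and 0.54% in spontaneous PBS, 1.65% and 1.07% in implanted PBS, 14.0% and 12.9% in spontaneous cGAMP and 20.9% and 25.8% in implanted cGAMP. The mean number found per cell was 0.32 and 0.35 in spontaneous PBS, 1.29 and 1.32 in spontaneous cGAMP, 0.47 and 0.46 in implanted PBS and 1.57 and 1.75 in implanted cGAMP. Without thinning it ran from 1.12 to 1.90 after PBS and from 2.68 to 4.30 after cGAMP, with the shallow first implanted cGAMP library at 2.68.

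**Figure D3:**
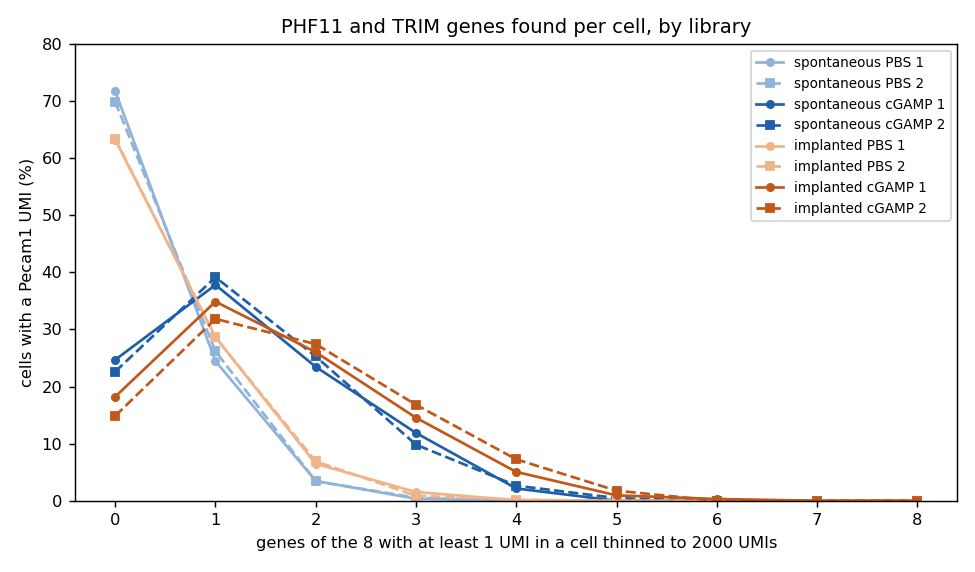
Percent of Pecam1 cells (y axis) by the number of the 8 genes found in a cell thinned to 2000 UMIs (x axis), with 1 line for each library. The PBS lines peak at no gene found, with 63.2% to 71.7% of cells, and the cGAMP lines peak at 1 gene.

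The cells without a Pecam1 UMI carried these RNAs too, and no cell type known to lack the genes was at hand. Those 1045 cells were shallow, and 18 to 67 per library could be thinned. Phf11d was in 48.6% and 42.2% of them in spontaneous cGAMP and in 41.8% and 61.1% in implanted cGAMP, beside 42.4% and 45.7%, then 43.6% and 54.9%, of Pecam1 cells. The cells without Pecam1 read higher in 1 library of either pair and lower in the other, so these shares cannot be read as endothelial alone. For Trim30a the shares were 21.6% and 13.3% in spontaneous cGAMP, below the 36.4% and 39.0% of Pecam1 cells, and 37.3% and 44.4% in implanted cGAMP, beside 42.0% and 42.1%. In levels, Trim30a was at 117.7 and 107.5 CPM in the spontaneous cGAMP cells without Pecam1, beside 247.9 and 260.6 CPM in Pecam1 cells. Phf11d was at 424.6 and 277.2 CPM in the same cells without Pecam1, beside 300.02 and 343.8 CPM in Pecam1 cells. The part of free RNA in the shares was not tested. At the limit itself, cells with a single Pecam1 UMI had Phf11d levels of 318 CPM in spontaneous cGAMP and 344 CPM in implanted cGAMP, and cells with none had 343 and 374 CPM.

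After PBS, every gene read higher in the implanted libraries, and the difference passed the test for Phf11b and Trim30a. Of the 8 genes, 2 were called, both higher in implanted tumours, where 7.83% of all tested genes were called and 3.39% called higher. Phf11b was higher by 1.72 ± 0.16 on the log2 scale (adjusted p = 0.000483) and Trim30a by 0.74 ± 0.10 (adjusted p = 0.00241). The implanted PBS libraries lay above the spontaneous PBS libraries for 8 of 8 genes, against 21.5% of tested genes. The other 6 differences did not pass, at 0.55 for Phf11d (adjusted p = 0.0759), 0.44 for Trim21 (adjusted p = 0.127), 0.67 for Trim30d (adjusted p = 0.162), 0.19 for Trim25 (adjusted p = 0.201), 0.59 for Phf11a (adjusted p = 0.289) and 0.31 for Phf11c (adjusted p = 0.544). The median difference of the 8 genes was 0.57 beside -0.06 over all tested genes. With median-of-ratios scaling the share of calls that were higher among all genes went from 43.3% to 67.9%, and the same count of 2 was called.

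After cGAMP, Phf11a, Phf11b and Trim30d were higher in implanted tumours than in spontaneous ones. Of the 8 genes, 3 were called, all higher in implanted tumours, where 13.8% of all tested genes were called and 5.23% called higher. They were Phf11a, higher by 1.72 ± 0.32 (adjusted p = 0.0097), Trim30d, by 1.38 ± 0.27 (adjusted p = 0.0114), and Phf11b, by 1.12 ± 0.16 (adjusted p = 0.00427). Phf11c had 0.91 ± 0.28 (adjusted p = 0.0631). Phf11d had 0.26, Trim21 0.27 and Trim30a 0.25, with adjusted p values of 0.325, 0.279 and 0.116, and Trim25 had -0.12 (adjusted p = 0.355). Implanted libraries lay above spontaneous ones for 6 of 8 genes, against 21.4% of tested genes. The share of calls that were higher among all genes went from 38.0% to 58.7% with median-of-ratios scaling.

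The 3 calls after cGAMP rested on few libraries. Without the first spontaneous cGAMP library only Phf11b remained (Phf11a, adjusted p = 0.0565, and Trim30d, 0.0571). Without the second none did (0.0943 for Phf11a, 0.121 for Trim30d and 0.0599 for Phf11b), and without the second implanted cGAMP library only Phf11b remained (0.0517 for Phf11a and 0.0642 for Trim30d). Each of these adjusted p values is from limma refitted without the library named. In these refits the sizes lay between 1.54 and 1.78 for Phf11a and between 1.20 and 1.51 for Trim30d. Phf11b had 1.11 without the second spontaneous cGAMP library. Over all 19 alternatives the sizes ran from 1.39 to 1.90 for Phf11a, 1.20 to 1.57 for Trim30d and 0.97 to 1.27 for Phf11b. For each gene the 4 groups can be ordered by level, and for 7 of 8 the order was spontaneous PBS, implanted PBS, spontaneous cGAMP, implanted cGAMP. In that order the first step was called for Phf11b and Trim30a, and the last for Phf11a, Phf11b and Trim30d.

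**Figure D4:**
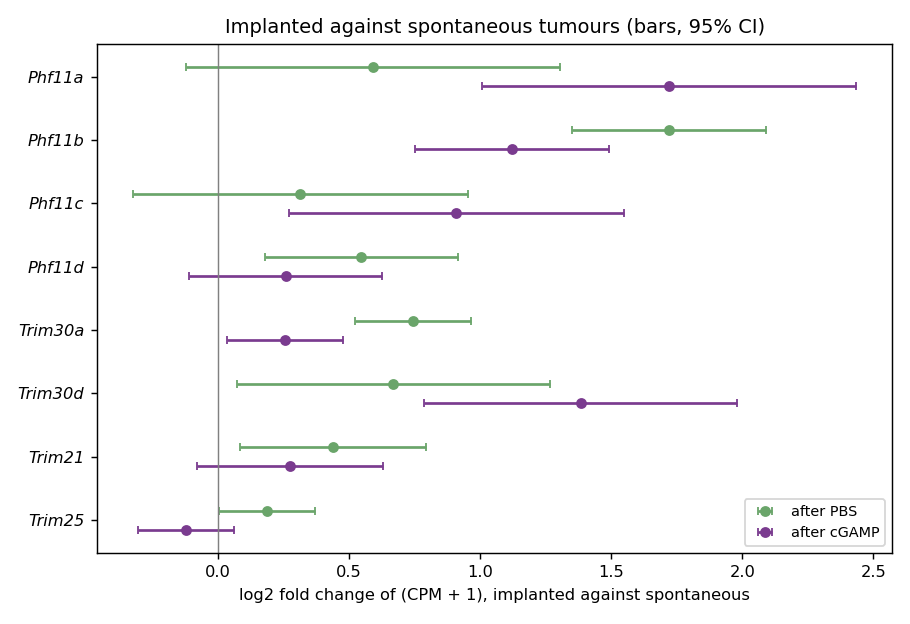
Log2 fold change of CPM + 1, implanted against spontaneous tumours (x axis), for each gene (y axis) after PBS and after cGAMP, with 95% confidence intervals from the limma fit of 8 libraries. Phf11b has 1.72 after PBS and 1.12 after cGAMP, while Phf11a and Trim30d have their larger values, 1.72 and 1.38, after cGAMP.

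The genes were then followed by vessel type. Pecam1 cells were scored on lists of arterial, postcapillary venous, tip, AQP7 capillary, proliferation and lymphatic markers and put in a class when their highest score was at least 1 SD above the mean and at least 0.5 SD above the next. Such a class is a range of a score and not a cell type. The arterial class held 912 cells, the postcapillary venous class 1064, the tip class 783, the AQP7 capillary class 733, the proliferation class 284 and the lymphatic class 403, and 2980 cells had none. Of these, 97, 106, 147, 162, 30 and 25 lay within 0.1 SD of a limit. Each class was above the other cells in its own list, for example with a median of 4909 CPM of arterial markers against 317.6 CPM. The proliferation class had only 10 and 22 cells in the spontaneous and implanted cGAMP groups and was not tested.

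Each of the 5 other classes was compared with all other Pecam1 cells of the same library. None of the 8 genes is among the markers. Of 40 pairs of a gene and a class, 7 were called by limma, a share that is not above the 25.5% of all gene and class pairs that were called. Postcapillary venous cells held 4 of the 7, all lower than other cells. Phf11b differed there by -0.85 ± 0.11 (adjusted p = 0.00172), Phf11a by -0.78 ± 0.13 (adjusted p = 0.00412), Trim30d by -0.69 ± 0.14 (adjusted p = 0.0112) and Phf11d by -0.57 ± 0.11 (adjusted p = 0.00732), where 30.4% of all genes were called in this class and 20.1% called lower. Phf11b and Phf11d were lower in 8 of 8 libraries.

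The venous difference can be seen in the treated libraries. Phf11d was at 259.4 and 249.9 CPM in postcapillary venous cells and at 304.5 and 357.8 CPM in other cells in spontaneous cGAMP. In implanted cGAMP it was at 281.8 and 281.0 CPM against 341.7 and 455.0 CPM. Phf11b was at 69.6 and 60.4 CPM against 112.1 and 112.3 CPM in spontaneous cGAMP, and at 139.9 and 133.2 CPM against 222.6 and 268.1 CPM in implanted cGAMP. Trim30a, Trim21, Trim25 and Phf11c were not called in this class, with differences of -0.16, -0.17, -0.23 and -0.63. The share of cells in this class with a Ptprc UMI was 10.2% in implanted cGAMP and 0.51% to 1.27% in the other groups, and that with a Pdgfrb UMI was 14.5% against 0.51% to 2.55%. The 4 calls held in cells with no UMI of Ptprc, Epcam or Pdgfrb.

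Trim30d was lower in AQP7 capillary cells by -1.18 ± 0.19 (adjusted p = 0.0099), where 12.2% of all genes were called and 8.93% called lower. It was at 12.7 and 13.7 CPM in these cells in spontaneous cGAMP and at 28.4 and 22.7 CPM in other cells. In implanted cGAMP the levels were 3.54 and 11.8 CPM against 56.2 and 75.1 CPM. Trim30d was lower in this class in 6 of the 6 libraries in which it was counted. The implanted PBS libraries among them held only 12 and 6 UMIs of it in all Pecam1 cells and 0 in this class. A lower reading there carries little weight. The implanted cGAMP levels of this class came from 13 UMIs in 101 cells. Without the first spontaneous cGAMP library the adjusted p was 0.0524 at a difference of -1.13. Trim25 was higher in AQP7 capillary cells in 8 of 8 libraries, by 0.51 ± 0.14, and did not pass (adjusted p = 0.0605).

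Phf11b was higher in arterial cells by 0.68 ± 0.13 (adjusted p = 0.00698), where 32.8% of all genes were called and 14.8% called higher. It read higher there in 6 of 8 libraries. The difference was largest in spontaneous PBS, with 12.7 and 14.6 CPM in arterial cells and 1.34 and 2.10 CPM in the others. Those arterial levels came from only 13 and 7 UMIs. In spontaneous cGAMP Phf11b was at 139.4 and 116.1 CPM against 105.2 and 104.6 CPM. In implanted tumours it was at 11.1 and 15.4 CPM against 15.8 and 9.64 CPM after PBS and at 216.8 and 229.5 CPM against 208.6 and 264.3 CPM after cGAMP, without a common direction in either group. Phf11a was higher in tip cells by 0.74 ± 0.19 (adjusted p = 0.0261), where 26.6% of all genes were called and 9.65% called higher. Its levels in implanted cGAMP were 59.2 and 67.2 CPM in tip cells against 22.7 and 28.5 CPM, while in spontaneous cGAMP they were 8.46 and 8.51 against 9.17 and 8.28 CPM. This call was lost when spontaneous PBS 1, either spontaneous cGAMP library or either implanted cGAMP library was left out. The differences were then 0.62 to 0.75. By limma it was also lost in cells with no UMI of Ptprc, Epcam or Pdgfrb (adjusted p = 0.0535). The same held for all deposited cells (adjusted p = 0.0810) and without the filter on low values (adjusted p = 0.0638).

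No gene was called in lymphatic cells, where 25.4% of all genes were, and the differences there ran from -0.90 for Phf11b to -0.15 for Phf11d. Whether a class responded to cGAMP differently from the other cells was tested too. Of 40 pairs 0 were called by limma, beside 0.00384% of all gene and class pairs, and 15 had an unadjusted p under 0.05, a share to be read beside the 10.9% of all pairs that had one. Of the 15, 11 were negative and 4 positive. Trim30d in AQP7 capillary cells had -1.65 (95% interval -2.55 to -0.75, adjusted p = 0.272) and Phf11a there -1.27 (-2.04 to -0.50, adjusted p = 0.301). Phf11b in arterial cells had -1.15 (-1.76 to -0.55, adjusted p = 0.269) and Trim21 in postcapillary venous cells -0.77 (-1.19 to -0.34, adjusted p = 0.183). The others in AQP7 capillary cells were Trim25, Trim30a and Phf11d (-0.73, -0.67 and -0.53). Negative too were Trim21 and Trim30a in arterial cells (-0.77 and -0.46) and Trim30d and Trim30a in postcapillary venous cells (-0.73 and -0.43). The 4 positive ones were Phf11c in lymphatic cells at 1.10 (0.029 to 2.17, adjusted p = 0.516), Phf11a in arterial cells at 0.95 (0.10 to 1.80, adjusted p = 0.485), and Trim21 and Trim25 in tip cells at 0.87 (0.0080 to 1.74, adjusted p = 0.448) and 0.76 (0.32 to 1.20, adjusted p = 0.241). Several of these values rest on few UMIs and so depend on the pseudocount. Lymphatic cells had 0 UMIs of Phf11c in spontaneous PBS and 1 in implanted PBS, and arterial cells 0 and 2 of Phf11a. AQP7 capillary cells of implanted cGAMP had 14 UMIs of Phf11a and 13 of Trim30d.

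**Figure D5:**
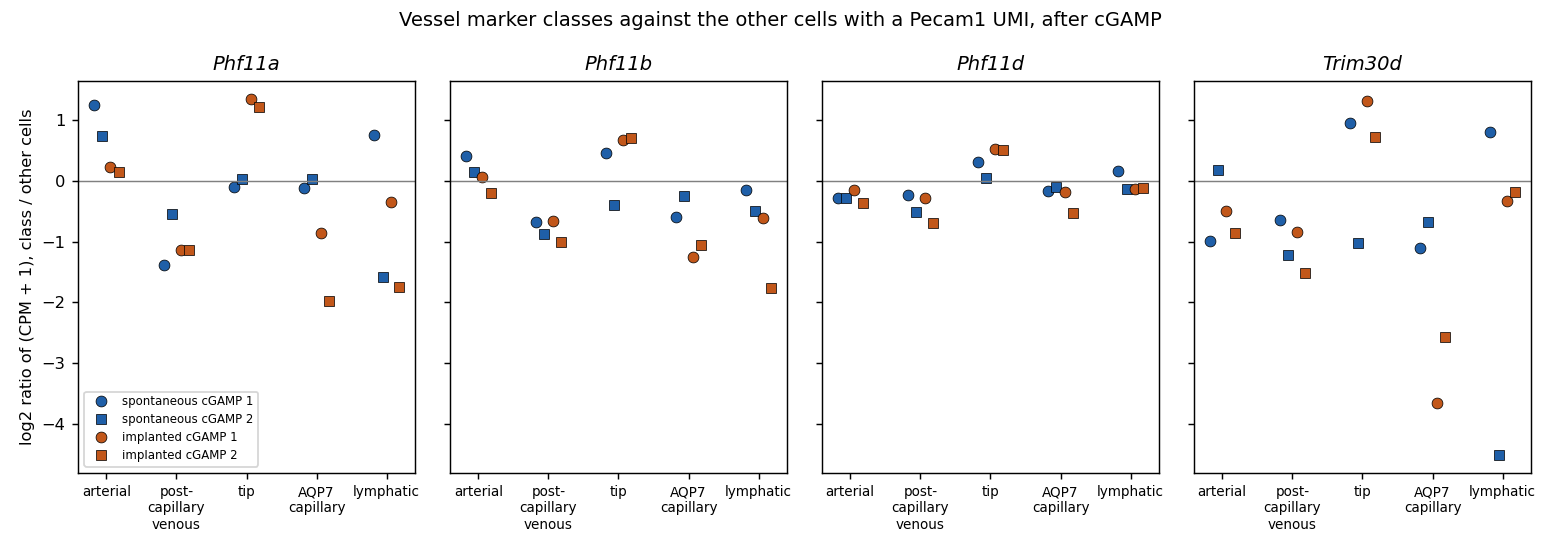
Log2 ratio of CPM + 1 between the cells of a vessel marker class and all other Pecam1 cells of the same library (y axis), for 5 classes (x axis) and the 4 genes called in at least 1 class, in the 4 cGAMP libraries (colours, models; circles, replicate 1; squares, replicate 2). All 4 points of each gene lie below 0 in the postcapillary venous class, and all 4 points of Trim30d lie below 0 in the AQP7 capillary class.

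The copies next to these genes were read as well. Trim30c, which lies beside Trim30a, had 0 UMIs in spontaneous PBS and 84 and 33 UMIs (6.39 and 2.61 CPM) in spontaneous cGAMP, at least 33.1-fold higher than a limit of 3 UMIs over the group. In implanted tumours it had 0 and 2 UMIs after PBS and 176 and 156 (12.5 and 13.3 CPM) after cGAMP, a ratio of summed UMIs of 212 with an exact 95% counting interval from 58.1 to 1755. Trim30b stayed at or below 1.93 CPM in every library and was not tested.

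Genes within 250 kb of the 8 genes were taken from the GENCODE vM21 annotation. Of the 4 tested neighbours of the Trim30 genes all 4 were called higher in both models. They were Trim30c, with log2 changes of 2.37 (adjusted p = 0.00962) and 3.75 (adjusted p = 0.000453), Trim34a (1.92 and 1.46), Trim6 (1.47 and 1.16) and Trim12c (0.93 and 0.51), all TRIM genes themselves. Of the 4 tested neighbours of the Phf11 genes only Setdb2, a histone methyltransferase gene, was called, at 0.76 ± 0.19 (adjusted p = 0.0332) and 1.28 ± 0.19 (adjusted p = 0.00157). It read 7.46 and 8.76 CPM, then 13.2 and 15.8 CPM in spontaneous tumours, and 10.7 and 7.73 CPM, then 21.6 and 25.7 CPM in implanted tumours. Around Trim21, 0 of 4 neighbours were called in spontaneous tumours and Rrm1, a ribonucleotide reductase subunit, was called lower in implanted tumours (-1.32, adjusted p = 0.000371). Around Trim25, Gm525 was called lower in both models (-0.89 and -1.57), Dgke, a diacylglycerol kinase, was called lower in implanted tumours (-0.48, adjusted p = 0.0351), and the other 3 of 5 were not called.

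Most other family members did not rise. The spontaneous response had 6 higher and no lower calls among 30 other tested TRIM genes, and the implanted response 7 higher and 3 lower ones, with median log2 changes of -0.01 and -0.06. Beyond the neighbours above, those that changed at least 2-fold in either model were Trim14, a mitochondrial adaptor of antiviral signalling (1.24, adjusted p = 0.0277, and 0.99, adjusted p = 0.0383), and Trim59, which was called lower in implanted tumours (-1.09, adjusted p = 0.0196). Of 15 other tested PHF genes none was called higher in either model, and 1 and 3 were called lower, with medians of -0.15 and -0.17.

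The pathway partners of the TRIM proteins were read from lists. All 5 genes of the ISG15 list were called higher in both models, with medians of 2.97 and 2.19. Isg15 itself had 4.32 ± 0.18 and 3.20 ± 0.18, and Usp18, the enzyme that removes ISG15, 3.96 and 3.45. Of the 10 tested RNA sensing genes around TRIM25, 5 were called higher in spontaneous and 6 in implanted tumours and none lower, with medians of 0.67 and 0.74. Among them Dhx58, an RNA helicase related to RIG-I, had 3.29 and 2.31, and Ifih1, the sensor MDA5, had 2.60 and 2.27. Ddx58, the gene of RIG-I, had 1.44 and 1.20, Rnf135, another ligase of RIG-I, 1.38 and 1.45, and Zc3hav1, an antiviral RNA-binding protein, 1.02 and 0.81.

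The partners of TRIM21 moved less. Of 10 tested, 3 and 4 were called higher and none lower, with medians of 0.15 and 0.21, led by the proteasome activator genes Psme1 (1.28 and 0.99) and Psme2 (1.12 and 0.63). Of the 9 NF-kB and TAB genes around TRIM30, 0 were called in spontaneous tumours and 1 was called higher in implanted tumours, with medians of 0.06 and -0.06. Of the 9 interferon signalling factors, 5 were called higher in both models and 1 lower in implanted tumours. Irf7 had 5.85 ± 0.19 and 4.12 ± 0.19, Stat2 2.26 and 1.62, and Irf9 1.72 and 0.82. Irf7 and Irf9 were the 2 of these 9 whose responses were called different between models, both smaller in implanted tumours (-1.72, adjusted p = 0.0290, and -0.91, adjusted p = 0.0241). After PBS, 5 of the 9 factors and 4 of the 5 ISG15 genes were called higher in implanted tumours.

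For each gene the other genes with the most similar levels over the 8 libraries were named, by Pearson r of log2(CPM + 1) among genes that averaged 10 CPM or more. The 8 points form treated and control sets, so any gene with the same response scores high, and the values are a description. Phf11d was closest to Mitd1 (r = 0.999), which read 49.0 and 54.0 CPM in spontaneous PBS and 117.6 and 130.7 CPM in spontaneous cGAMP, and then to Znfx1 and Rnf114 (both 0.997). Phf11b was closest to Ifih1, Sp110 and Ddx60 (all 0.999). Phf11a was closest to Ifi208 (0.995), Hap1 and Ifit1bl1 (both 0.994), and Phf11c to Ifit1bl1 (0.998), Mx1 and Nt5c3 (both 0.996). Trim30a was closest to Ddx60, Bst2 and Rnf114 (all 0.998), and Trim30d to Tlr3 (0.999), Grn (0.998) and Oas3 (0.997). Trim21 was closest to Naa20 (0.998), Usp18 and Bst2 (both 0.997). Trim25 was closest to Ly6e (0.996), Irf7 (0.988) and Ccl5 (0.987), which was the loosest set of the 8.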

How the data were processed

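The labels of the libraries gave the groups. The authors mapped the reads to mm10 with Cell Ranger 3.0.0 and normalised with Seurat 3.1.1, per the submitters' processing notes, filtered cells and rare genes, and deposited natural log values for each cell in 1 table a library, ln(1 + UMIs × 10000 / total UMIs of the cell). The lowest number of genes in a deposited cell was 501. Scaling by the smallest value of a cell gave whole numbers for 100% of values within 0.01, so UMIs were worked back, and a gene with no row in a library was set to 0. Reads that fit several copies of a gene are as a rule not counted by this mapper. Columns left unused were 0.

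Levels were means of CPM over Pecam1 cells. The log2 of the mean plus a pseudocount of 1 CPM was fitted with limma 3.58.1 (R 4.3.3, moderated with an intensity trend), all 8 libraries together, over 10424 genes that reached 5 CPM in 2 or more libraries, and all 8 genes passed. No count model was run on the UMIs worked back. Vessel classes were compared within libraries with at least 20 cells of the class. The fit was first tested on simulated data with known changes. The depth per library sets the counting precision, and Wilson and exact 95% intervals cover counting error only.

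Genes named were the 8 genes, for each the 3 genes of at least 10 CPM with the highest r, called TRIM, PHF and pathway genes of at least 2-fold change, and called neighbours. A pathway gene that meets this rule is not reported here. Trim30b was added after its values were seen. The 8 genes and all lists were chosen with earlier results of these data known, and the study named Phf11d on these libraries. Alternatives were other pseudocounts, filters, scalings, cell choices, a replicate block and leaving out each library. Thinning and promoter searches were run in Python 3.11.15.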

Additional observations from a re-analysis of the deposited data

How the results depend on the processing

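All 8 genes stayed called higher in both responses under each of the 19 alternatives tried for them, and none was called in the difference of responses under any of them. Trim21 changed sign in that difference, to 0.23, when all deposited cells were used, and was not called. Summing UMIs per library called 4 of the 8 genes after PBS in place of 2, adding Phf11d and Trim25, and 12 gene and class pairs in place of 7. A pseudocount of 5 CPM also gave 12 pairs, and leaving out a library 6 to 10. The tip difference of Phf11a was called in 12 of 20 alternatives. Phf11d passed after PBS in 6 of 19 alternatives. After cGAMP, leaving out a library gave 0 to 3 called genes, and after PBS 2 to 3. A lone library is then assumed to vary like the other groups. With the replicate number as a block the counts stayed at 8, 8, 0, 2 and 3 genes and 7 pairs. Deviations of same-numbered libraries correlated between -0.22 and 0.13 over 6 pairs of groups. With 2 libraries a group, this cannot show whether same-numbered libraries were prepared together.

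Counts over all genes moved more. The 1322 genes of the spontaneous response became 812 without the filter, 2839 with summed UMIs, 771 without the trend and 448 to 1808 with a library left out. The 2609 of the implanted response became 1265 to 2495 with a library left out. The 69 genes of the difference became 0 without the filter or the trend, 112 with summed UMIs, 43 with all cells and 2 to 171 with a library left out. After PBS the 816 genes became 327, 1317, 414 and 212 to 1234, for no filter, summed UMIs, no trend and a library left out. After cGAMP the 1434 genes became 784 without the filter, 843 without the trend and 156 to 1447 with a library left out. The cause was not tested. Low UMI counts limit Phf11a, Phf11c and Trim30d after PBS, and Phf11b in the arterial cells of spontaneous PBS. They also limit Phf11a and Trim30d in the AQP7 capillary cells of implanted cGAMP.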
